A study of Mus musculus with 31 samples.

Results

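The MHC class I antigen presentation genes described here were *H2-K1*, *H2-D1*, *B2m*, *Tap1*, *Tap2*, *Tapbp*, *Psmb8*, *Psmb9*, *Psmb10* and *Nlrc5*, 10 genes chosen by name and matched from Ensembl identifiers to symbols with the GENCODE annotation of mouse build GRCm38. All 10 were found among the 35275 gene identifiers of an insulin experiment and the 54532 of an ERRα3SA experiment, and all 10 passed the filter on low counts in each comparison. In the insulin experiment, C57BL/6N mice that were either wild-type (WT) or null for the nuclear receptor ERRα (ERRα-/-) were fasted for 12 h, given saline or 1 unit/kg insulin into the peritoneum, and their livers were taken at 4 h. There were 4 livers per group, except for 3 from ERRα-/- mice given insulin, which lack a replicate 3. In the ERRα3SA experiment, liver and skeletal muscle (gastrocnemius and soleus) came from mice with a CRISPR knock-in that changes serines of ERRα targeted by GSK3β to alanine in every tissue, and from their WT littermates, with 4 samples for each genotype and tissue. By the study's methods these mice had a C57BL/6N background as well. All mice ate a standard diet and, by the study's methods, were males aged 2 to 3 months. RNA-seq counts summed over genes ran from 35871419 to 48317108 for the insulin livers and from 20481405 to 33412022 for the ERRα3SA experiment's samples. Levels are read counts scaled to library size (CPM), or CPM per kilobase of annotated exon where genes are set against each other, and were scaled separately for the insulin livers, the ERRα3SA experiment's livers and its muscles.

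MHC class I molecules display peptides from inside a cell to CD8 T cells. A heavy chain, encoded by *H2-K1* or *H2-D1* among others, pairs with β2-microglobulin (*B2m*) and is loaded in the endoplasmic reticulum with peptides that the transporter made of TAP1 and TAP2 brings in from the cytosol, while tapasin (*Tapbp*) holds the empty molecule at the transporter. The peptides are cut by the proteasome, in which the interferon-inducible subunits PSMB8, PSMB9 and PSMB10 can take the places of the constitutive subunits PSMB5, PSMB6 and PSMB7, and NLRC5 is a transactivator that acts at class I promoters. In whole tissue these genes are read from hepatocytes or muscle fibres together with macrophages, endothelium and leukocytes, so fewer cells of a type and less RNA per cell cannot be told apart.

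The genotype labels were checked with *Esrra*, which encodes ERRα. *Esrra* levels were 32.3, 51.3, 42.7 and 40.5 CPM in WT livers after saline and 53.7, 96.4, 56.1 and 58.97 CPM after insulin. In ERRα-/- livers they were 1.63, 0.703, 1.15 and 1.04 CPM after saline and 0.833, 0.576 and 0.298 CPM after insulin, so every ERRα-/- liver lay far below every WT liver. In the ERRα3SA experiment, *Esrra* was 18.4 to 27.9 CPM in ERRα3SA livers and 25.7 to 27.99 CPM in littermate livers. The knock-in changes codons and cannot be checked by a level.

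ERRα3SA muscle replicate 1 stood apart from the other muscles. *Esrra* levels were 25.8, 139.5, 134 and 102 CPM in ERRα3SA muscles and 94.1, 86.05, 69.7 and 81.5 CPM in littermate muscles, with replicate 1 the lowest of all 8. Mitochondrial genome genes held 19.3% of its counts, against 9.15 to 10.8% in the other 7 muscles, and its 10 most counted genes held 33.3%, against 19.8 to 24.2%. Muscle comparisons are given with and without it for these reasons, a choice made after the values were seen. Of the class I genes, 9 were lower in this sample than in the other ERRα3SA muscles, while *B2m* was higher. Leaving it out therefore raises the ERRα3SA means of those 9 genes by itself.

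The tissue labels matched their defining markers. The summed level of 5 hepatocyte markers, of which *Alb* was the most abundant, was 56235 to 117042 CPM in livers and 0.208 to 1.40 CPM in muscles, where *Apoa1*, *Ttr* and *Cps1* had at most 3 counts in every sample. The summed level of 5 skeletal muscle fibre markers, led by *Acta1*, was 59021 to 98034 CPM in muscles and at most 10.3 CPM in livers, apart from WT liver insulin replicate 3 with 76.6 CPM.

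In liver, *B2m* had the highest level per kilobase of these genes and the heavy chain genes came next. In WT livers after saline, the level was 1186 ± 26.9 CPM per kilobase for *B2m*, 431 ± 37.2 for *H2-K1*, 186 ± 30.6 for *H2-D1* and 19.4 ± 3.03 for *Tapbp* (mean ± SD, n = 4). The transporter, immunoproteasome and transactivator genes were lower, at 6.11 ± 0.651 CPM per kilobase for *Psmb10*, 4.34 ± 0.518 for *Tap1*, 2.43 ± 0.602 for *Nlrc5*, 2.24 ± 0.237 for *Tap2*, 1.44 ± 0.366 for *Psmb9* and 1.39 ± 0.532 for *Psmb8*. The ranges of *Nlrc5* and *Tap2* overlapped, as did those of *Psmb9* and *Psmb8*, while the other neighbours in this order did not overlap. *B2m*, *H2-K1*, *H2-D1*, *Tapbp* and *Psmb10* led in that order of means in each liver group, and *Psmb10* overlapped with *Tap1* in both ERRα-/- groups.

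Littermate livers of the ERRα3SA experiment held the same leading genes. The level was 1827 ± 118 CPM per kilobase for *B2m*, 512 ± 25.8 for *H2-K1*, 204 ± 10.8 for *H2-D1*, 21.2 ± 1.97 for *Tapbp* and 15.2 ± 2.67 for *Psmb10*. *Psmb8* (6.00 ± 0.369), *Tap1* (5.35 ± 0.283) and *Tap2* (4.84 ± 0.444) followed, each overlapping with the next, and *Psmb9* (4.13 ± 0.229) and *Nlrc5* (2.03 ± 0.257) were lowest. *Psmb8* was 3.03 to 7.12 CPM in WT livers after saline and 18.6 to 21.6 CPM in littermate livers, a pair of groups from tables that were normalised separately, so this difference was not tested.

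The constitutive proteasome subunits were above their interferon-inducible counterparts in liver. In WT livers after saline, the level per kilobase was 72.4 ± 5.70 for *Psmb5*, 35.1 ± 4.97 for *Psmb6* and 29.1 ± 2.41 for *Psmb7*. In littermate livers it was 81.4 ± 1.90, 51.2 ± 3.13 and 26.99 ± 1.53 in the same order. *Psmb10* was the nearest to its counterpart there.

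**Figure D1:**
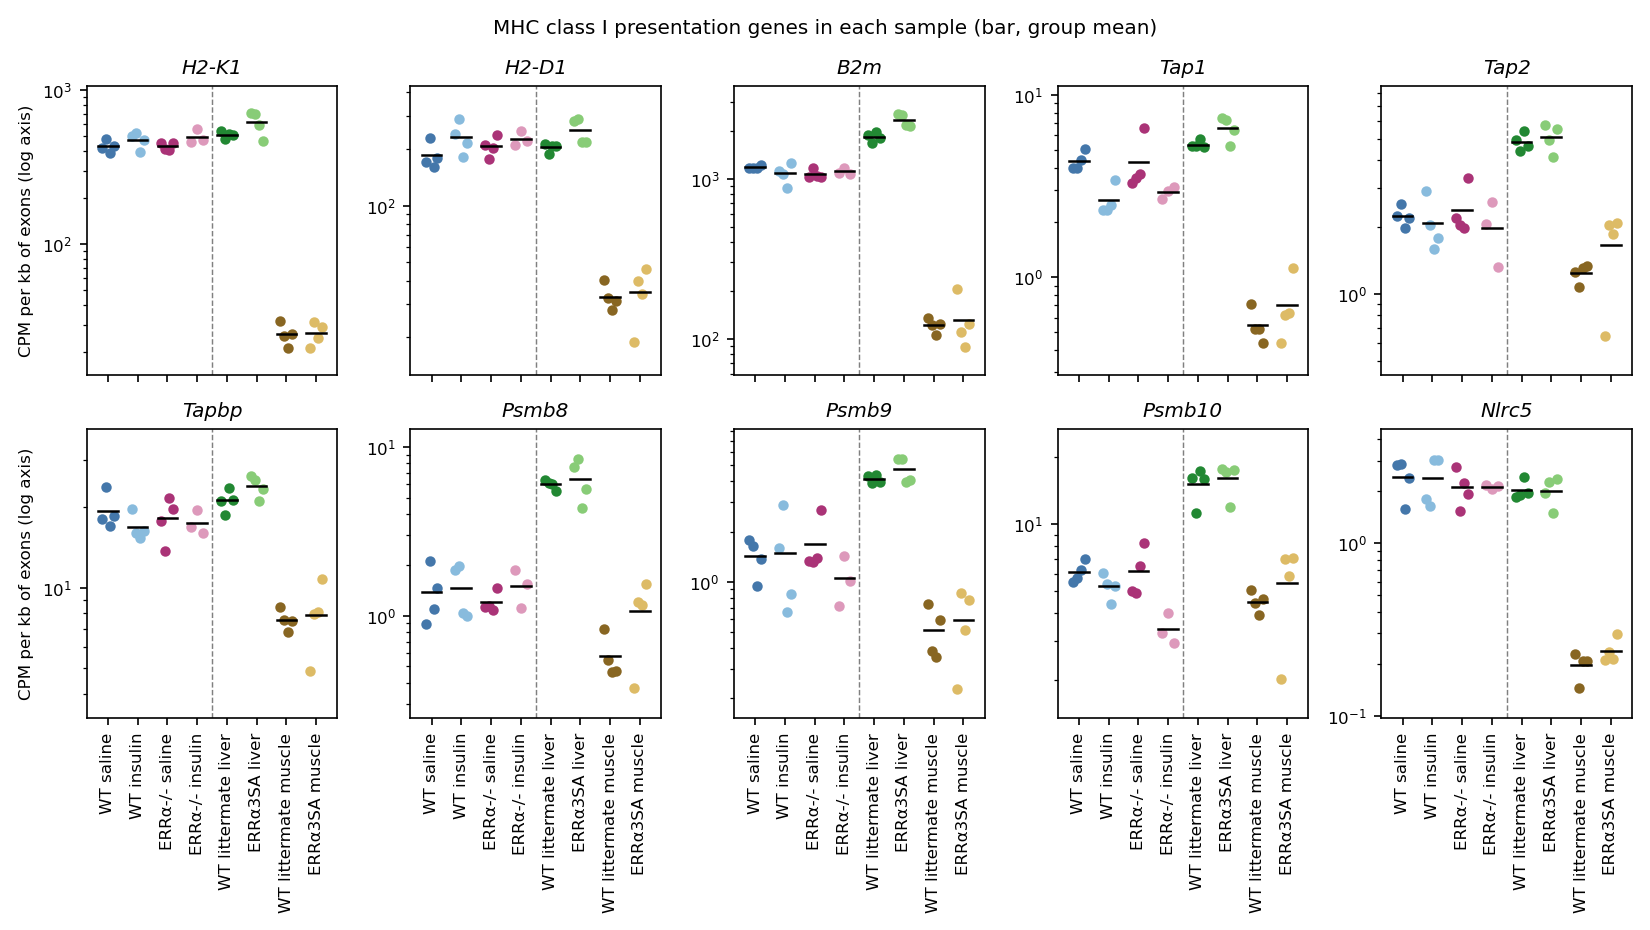
Level of each of the 10 genes in every sample, in CPM per kilobase of exon on a log axis, for the 8 groups; each point is 1 sample, the bar is the group mean, and the dashed line separates the 2 experiments. *B2m* in WT livers after saline was 1186 ± 26.9 CPM per kilobase and in littermate muscles 122 ± 12.2.

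Most of these genes lie close together on chromosome 17. *Psmb9* (chr17:34181987-34187764, minus strand) and *Tap1* (chr17:34187553-34197225, plus strand) are transcribed away from each other, with RefSeq starts separated by 225 bases and 212 annotated exon bases in common. *Psmb8* (chr17:34197721-34201454) and *Tap2* (chr17:34203527-34216321) follow on the plus strand. *Tapbp* (chr17:33915899-33929292, plus strand), *H2-K1* (chr17:33996017-34000347, minus strand) and *H2-D1* (chr17:35262730-35267499, plus strand) are on the same chromosome. *B2m* is at chr2:122147686-122153083 (plus strand), *Psmb10* at chr8:105935735-105938444 (minus strand) and *Nlrc5* at chr8:94434356-94527272 (plus strand).

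Class I heavy chains are a family of close copies, so how reads shared between copies were counted bears on *H2-K1* and *H2-D1*. Of the 100-base stretches in their annotated transcripts, 0.957% for *H2-K1* and 3.59% for *H2-D1* also occurred in another gene, most often *H2-Q10* and *H2-Q1*, and none did for *B2m*. Antisense genes overlap 698 exon bases of *Tap2*, 498 of *Psmb8* and some of *Tapbp*, and had at most 7 counts in any sample. *Zbtb22* overlaps 149 exon bases of *Tapbp* on the same strand and had 96 to 1023 counts per sample. The noncoding gene *9330175E14Rik* overlaps 78 exon bases of *Nlrc5* on the other strand and had at most 49 counts. The part of these overlaps in the levels of *Tapbp* and *Nlrc5* was not tested.

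Promoter sequences from RefSeq (GRCm38.p6) were available for 8 of the 10 genes, without *Tap2* and *Nlrc5*. The genes for the 2 chains of the class I molecule are shown because they hold a pair of motifs at the same distance. In *H2-K1*, *H2-D1* and *B2m*, TGACG, a core of the cAMP response element known as the X2 part of the SXY module of class I promoters, was followed after 20 bases by ATTGG, the CCAAT box that forms its Y part. This spacing was chosen after the matches were seen. Searched on both strands, the pair was in 30 of 32817 promoters (0.09%), 3 of them from the 8 class I genes searched. The stretches run 5′ to 3′ on the strand of each gene, at chr17:34000359-34000388 (minus strand), chr17:35262993-35263022 (plus strand) and chr2:122147609-122147638 (plus strand), with both motifs in capitals:
H2-K1: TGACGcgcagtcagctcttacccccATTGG
H2-D1: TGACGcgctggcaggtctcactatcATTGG
B2m: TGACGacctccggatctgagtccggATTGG

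The bases before the start are given for *H2-K1* (250 bases, chr17:34000348-34000597, minus strand) and *B2m* (249 bases, chr2:122147437-122147685, plus strand), a heavy chain and its partner, to show where the motifs lie. Capitals mark TGACG and ATTGG in both, the NF-κB motif GGGGATTCC in *H2-K1*, and in *B2m* GAAACTGAA, a match to the core of the interferon-stimulated response element, GAAANNGAA:
H2-K1: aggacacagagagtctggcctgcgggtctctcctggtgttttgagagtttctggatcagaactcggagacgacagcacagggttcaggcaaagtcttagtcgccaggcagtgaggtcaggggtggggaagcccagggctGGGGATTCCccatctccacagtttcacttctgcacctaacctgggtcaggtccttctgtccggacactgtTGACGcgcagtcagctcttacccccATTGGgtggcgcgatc
B2m: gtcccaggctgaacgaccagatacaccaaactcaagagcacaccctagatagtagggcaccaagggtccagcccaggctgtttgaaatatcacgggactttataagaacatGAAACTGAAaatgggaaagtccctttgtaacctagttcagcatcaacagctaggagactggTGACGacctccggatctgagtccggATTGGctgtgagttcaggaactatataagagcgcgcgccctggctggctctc

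Each motif was also counted by itself over the 250 bases before the start, on both strands. Only exact matches to each pattern were counted. A gene without a match, the heavy chain genes included, may still hold a near match to the same element. For *H2-D1*, *Tap1*, *Tapbp*, *Psmb8* and *Psmb9* these windows lie wholly within exons that GENCODE annotates for some gene on either strand, and so does the stretch of *H2-D1* above. GGGGATTCC was in *H2-K1* and *H2-D1* and in 0.21% of all promoters. GAAANNGAA was in *B2m*, 1 of the 8 genes, and in 7.12% of promoters, and the gamma-activated sequence TTCNNNGAA was in *Psmb8*, as TTCCCAGAA, and in 7.01%. TGACG was in 5 of the 8 genes and 17.75% of promoters, and ATTGG in 6 of the 8 and 33.83%. *Tap1* and *Psmb9* share much of this window on opposite strands, so their matches to TGACG and ATTGG are the same bases. TCAAGGTCA, the ERR response element, was in 0 of the 8 windows and in 0.39% of promoters.

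**Figure D2:**
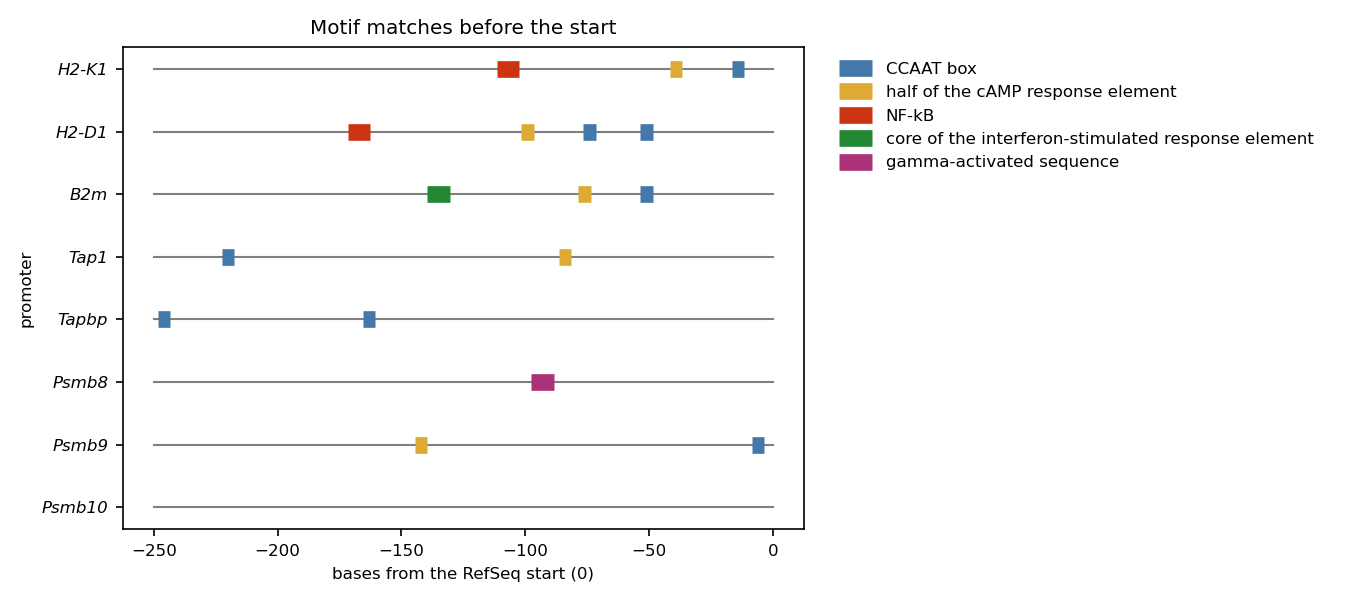
Positions of motif matches in the 250 bases before the RefSeq start of 8 class I genes, in bases from the start; each grey line is 1 promoter and each coloured block is a match. The cAMP response element core and a CCAAT box stand 20 bases apart in *H2-K1*, *H2-D1* and *B2m*, and *Psmb10* had no match to these motifs.

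The first comparison asked how insulin changed these genes in fasted WT liver. *Tap1*, which encodes a chain of the peptide transporter, fell, and the other 9 genes did not pass the test. *Tap1* was 21.7, 21.7, 24.04 and 27.7 CPM after saline and 12.8, 12.8, 13.6 and 18.7 CPM after insulin. Each insulin liver lay below each saline liver, and WT liver insulin replicate 4 was the highest of its group. The log2 fold change was -0.71 (SE 0.16), a 1.64-fold lower level, with an unadjusted p of 0.000828 and an adjusted p of 0.0348 (edgeR quasi-likelihood test, Benjamini-Hochberg adjustment over 13463 genes). A gene was a DEG when its unadjusted p was under 0.05 and it moved 1.2-fold or more, and *Tap1* was 1 DEG of 10, against 17.2% of all genes. At an adjusted p under 0.05 it was also 1 of 10, against 3.16% of all genes. With single livers left out, its adjusted p was 0.0245 without WT liver insulin replicate 4 and 0.058 to 0.140 without any other liver.

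The heavy chain gene *H2-D1* came next by p. *H2-D1* was 443, 594, 416 and 465 CPM after saline and 619.8, 744, 467 and 559 CPM after insulin, and the groups overlapped. Its log2 fold change was 0.32 (SE 0.17) with an unadjusted p of 0.0847, which was 0.0177 with replicate numbers as a block, 0.0249 without WT liver saline replicate 2 and 0.0279 without WT liver insulin replicate 3. Without any other single liver it was above 0.05, up to 0.229 without WT liver insulin replicate 2, where the log2 fold change was 0.19. That liver stood apart in its group, with 14507 genes detected, against at least 16349 in each of the other 3, and a mitochondrial share of counts of 1.88%, while theirs ran from 3.88 to 4.17%. It had the highest *H2-K1*, *H2-D1*, *Psmb8*, *Psmb9* and *Psmb5* of the group. The log2 fold change was 0.14 (SE 0.13) for *H2-K1*, -0.13 (SE 0.13) for *B2m*, -0.20 (SE 0.14) for *Tapbp*, -0.11 (SE 0.20) for *Tap2* and -0.21 (SE 0.16) for *Psmb10*. *Nlrc5* (-0.02, SE 0.25), *Psmb8* (0.08, SE 0.32) and *Psmb9* (0.06, SE 0.41) had the largest errors, and *Psmb9* ran from 2.41 to 10.6 CPM within the insulin group. With single livers left out, the log2 fold change ran from -0.48 to 0.31 for *Psmb9* and from -0.10 to 0.34 for *Psmb8*. The median log2 fold change of the 10 genes was -0.06, with 4 of 10 higher, against a median of 0.00 over all genes.

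Among partner genes, insulin went with higher *Psmb5* and lower *Rfx5* in WT liver. *Psmb5*, the counterpart of *Psmb8*, was 60.03 to 72.2 CPM after saline and 74.3 to 116 CPM after insulin (log2 fold change 0.48 (SE 0.15, unadjusted p = 0.00725, adjusted p = 0.119)), 1 of 8 genes called in a list of constitutive catalytic subunits, activators and a maturation factor of the proteasome. *Psmb6* had a log2 fold change of 0.24 (SE 0.15) and *Psmb7* of 0.19 (SE 0.11), and neither was called. Of 16 transcription factors of class I genes, 3 fell and 1 rose, where 17.2% of all genes were DEGs in this comparison. *Rfx5*, a subunit of the RFX complex that binds the SXY module, had a log2 fold change of -1.16 (SE 0.21, unadjusted p = 0.000164, adjusted p = 0.0157), *Rfxank*, another subunit, one of 0.58 (SE 0.17), *Nfyb* one of -0.48 (SE 0.18) and *Nfkb1* one of -0.37 (SE 0.15). Of 9 peptide loading and trimming partners, 2 rose, the chaperone gene *Hspa5* (0.79, SE 0.32) and the translocon gene *Sec61b* (0.60, SE 0.25). Of 14 other class I heavy chains, *H2-Q7* (0.44, SE 0.19) and *H2-Q10* (0.34, SE 0.14) rose. The interferon gamma receptor gene *Ifngr2* fell (-0.41, SE 0.12), 1 of 4 interferon ligands and receptors, and so did the class II transactivator gene *Ciita* (-1.84, SE 0.80), 1 of 7 class II presentation genes.

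Of 47 cell type markers tested in this comparison, 2 rose and 2 fell, where 17.2% of all genes were DEGs. The summed level of 9 macrophage markers, led by *Clec4f*, was 187, 396, 249.8 and 276 CPM after saline and 304, 303, 172 and 231 CPM after insulin. The 6 endothelial markers, led by *Stab2*, summed to 134, 236, 197 and 194 CPM after saline and 167, 130.4, 176 and 187 CPM after insulin, and *Kdr* among them fell (-0.60, SE 0.22). The 4 monocyte and neutrophil markers, led by *S100a9*, summed to 0.570, 2.64, 0.914 and 1.94 CPM after saline and 3.67, 3.20, 1.74 and 4.34 CPM after insulin, and of the 3 tested *S100a8* rose (2.44, SE 1.07), with a median log2 fold change of 1.44. All 3 sums overlapped between the groups. *Lrat*, 1 of 4 stellate cell and fibroblast markers, fell (-0.88, SE 0.19), and the muscle fibre marker *Acta1* rose (5.15, SE 1.82), with WT liver insulin replicate 3 far above the other livers in muscle fibre markers. The part of these markers in the fall of *Tap1* was not tested.

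In ERRα-/- livers, insulin went with lower *Psmb10*, an immunoproteasome subunit, and lower *Tap1*. *Psmb10* was 8.55, 8.39, 11.1 and 14.1 CPM after saline and 5.57, 6.86 and 5.02 CPM after insulin. The groups did not overlap, and the log2 fold change was -0.86 (SE 0.22, unadjusted p = 0.00230, adjusted p = 0.0628). *Tap1* was 18.1, 19.2, 20.1 and 36.3 CPM after saline and 14.6, 16.3 and 17.1 CPM after insulin. Each insulin liver lay below each saline liver, with ERRα-/- liver saline replicate 4 far above its group. The log2 fold change of *Tap1* was -0.55 (SE 0.23, unadjusted p = 0.0349, adjusted p = 0.237). Thus 2 of 10 were DEGs, against 17.2% of the 13684 genes tested, and 0 of 10 had an adjusted p under 0.05 by edgeR. *Psmb10* did by DESeq2 (0.00756), and also by edgeR without a filter on low counts (0.0286) or with all insulin experiment groups in the fit (0.0332). Without ERRα-/- liver saline replicate 4 the log2 fold change of *Tap1* was -0.26, unadjusted p = 0.0678, and its unadjusted p was 0.104, 0.0749 and 0.0582 without insulin replicates 1, 2 and 4.

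*Psmb9*, whose start lies beside that of *Tap1*, was 4.85, 4.80, 5.09 and 9.93 CPM after saline and 2.63, 5.21 and 3.69 CPM after insulin in ERRα-/- livers. The groups overlapped, and its log2 fold change was -0.69 (SE 0.32, unadjusted p = 0.0574, adjusted p = 0.301). The unadjusted p of *Psmb9* was 0.0393 with DESeq2, 0.0308 without a filter on low counts, 0.0416 with replicate numbers as a block, a fit that also leaves out saline replicate 3, and 0.0238 to 0.0463 without saline replicate 1, 2 or 3 or insulin replicate 2. It was 0.210 without saline replicate 4, where the log2 fold change was -0.36, and 0.201 and 0.126 without insulin replicates 1 and 4. The remaining 7 genes had log2 fold changes from -0.26 for *Tap2* to 0.32 for *Psmb8*, and the median of the 10 was -0.03, against -0.02 over all genes.

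Of the partner genes in ERRα-/- livers after insulin, 4 of 16 transcription factors fell and 0 rose, where 17.2% of all genes were DEGs. Among these 4 were *Nfyb* (-0.65, SE 0.16), *Stat2* (-0.40, SE 0.12) and *Nfyc* (-0.30, SE 0.13), and STAT2 carries interferon signals to the nucleus. *Ifngr2* fell with an adjusted p of 0.0363 (-0.93, SE 0.20), 1 of 4 interferon ligands and receptors. The class I-like genes *H2-Q1* (-1.47, SE 0.53) and *Mr1* (-0.97, SE 0.28) fell, 2 of 14, as did the tapasin relative *Tapbpl* (-0.51, SE 0.14), 1 of 9 loading partners. Of 8 constitutive catalytic subunits, activators and maturation genes of the proteasome, 0 were called by edgeR, with log2 fold changes of 0.04 (SE 0.18) for *Psmb5*, 0.05 (SE 0.13) for *Psmb6* and 0.05 (SE 0.14) for *Psmb7*.

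Of 53 cell type markers tested after insulin in ERRα-/- livers, 3 fell, all from lists of leukocyte types, and 2 rose, *Cps1* (0.74, SE 0.25) and *Hba-a2* (0.90, SE 0.37). Of all genes, 17.2% were DEGs. *Ccr2*, 1 of 3 monocyte and neutrophil markers tested, had a log2 fold change of -1.42 (SE 0.37), and *Cd8a* (-2.89, SE 1.22) and *Klrb1c* (-1.74, SE 0.78) were called of 6 T and NK cell markers. The summed level of the monocyte and neutrophil list, led by *S100a9*, was 5.12, 1.67, 3.22 and 4.65 CPM after saline and 2.47, 1.73 and 1.30 CPM after insulin, and that of the 10 T and NK cell markers, led by *Cd4*, was 4.80, 2.79, 4.13 and 3.72 CPM and 3.23, 2.94 and 3.36 CPM. Both sums overlapped between the groups, and the median log2 fold changes of the tested markers were -0.87 and -0.47. Of the 3 markers shared by all leukocytes, 0 were called by edgeR, with a median log2 fold change of 0.04, and the medians of the macrophage and dendritic cell markers were 0.18 and 0.27. Their part in the fall of *Psmb10* was not tested.

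Whether insulin acted differently in the genotypes was tested by the interaction itself, WT effect minus ERRα-/- effect. *Psmb10* had an interaction of 0.65 (SE 0.26, unadjusted p = 0.0253, adjusted p = 0.528), its log2 fold change being -0.21 in WT and -0.86 in ERRα-/- livers. It was 1 of 10 genes at an unadjusted p under 0.05, against 8.79% of 14670 genes, a share near that of all genes, and 0 of 14670 had an adjusted p under 0.05 by edgeR, against 20 by DESeq2. The interaction of *Psmb10* had an unadjusted p of 0.0684 without ERRα-/- liver saline replicate 4, 0.0525 without insulin replicate 1 and 0.0719 without insulin replicate 4. For *Tap1* the interaction was -0.17 (SE 0.29, unadjusted p = 0.573, adjusted p = 0.902). Without ERRα-/- liver saline replicate 4 it was -0.46, unadjusted p = 0.0462.

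Among partner genes, 4 of 15 other class I heavy chains had an interaction at an unadjusted p under 0.05, against 8.79% of all genes, namely *H2-T10* (1.85, SE 0.78), *H2-Q1* (1.81, SE 0.75), *Mr1* (0.84, SE 0.39) and *H2-T22* (0.33, SE 0.16). So did *Sec61b* (0.74, SE 0.34) and *Tapbpl* (0.54, SE 0.20) of 9 loading partners and *Ifngr2* (0.52, SE 0.24) of 4 interferon ligands and receptors. None of these had an adjusted p under 0.05, and 0 of 16 transcription factors were called by edgeR. Of 59 cell type markers tested, 0 had a higher and 3 a lower interaction, 2 of 9 macrophage markers and 1 of 4 stellate cell and fibroblast markers. The median was -0.44 for the macrophage markers and 1.77 for the 4 monocyte and neutrophil markers. The part of these markers in the interaction of *Psmb10* was not tested.

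**Figure D3:**
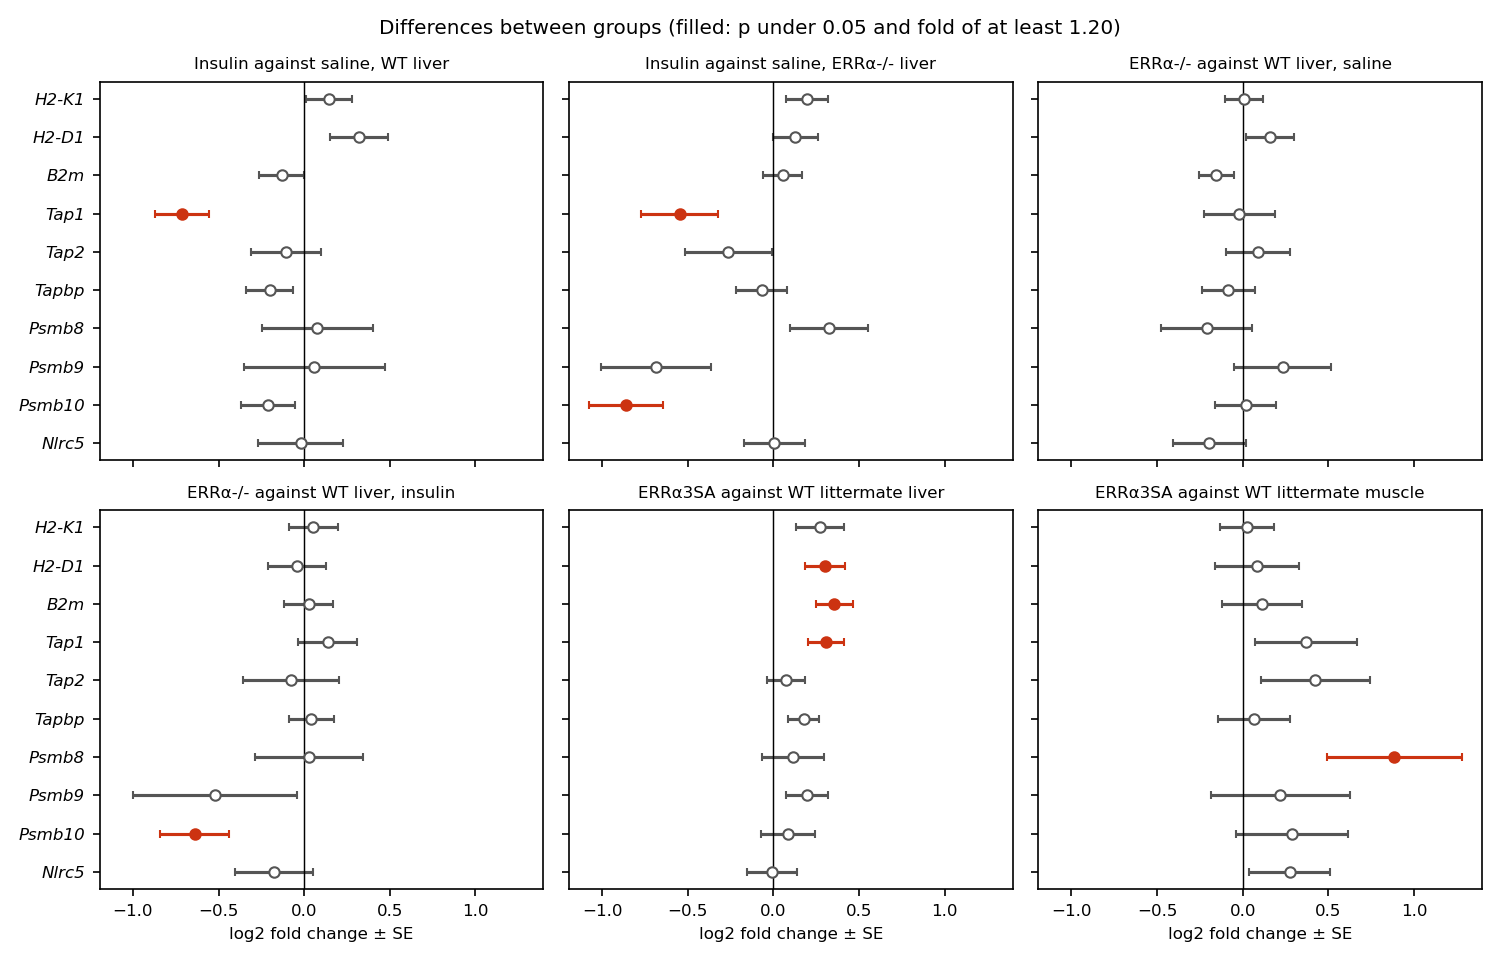
Log2 fold change of each gene with its SE in each comparison; filled points are DEGs and open points are not. *Tap1* was -0.71 after insulin in WT livers and -0.55 in ERRα-/- livers, and *Psmb10* was -0.86 in ERRα-/- livers.

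Loss of ERRα by itself was read from ERRα-/- against WT livers after saline. None of the 10 genes was a DEG by edgeR or by DESeq2, against 11.3% of 13481 genes by edgeR. Of the 10, 0 had an unadjusted p under 0.05, against 1625 of the 13481 genes by edgeR. Log2 fold changes ran from -0.21 (SE 0.26) for *Psmb8* to 0.23 (SE 0.28) for *Psmb9*. With single livers left out, *Psmb8* ran from -0.37 to 0.06 and *Psmb9* from -0.10 to 0.36. *B2m* was 1006, 1010.4, 1009 and 1055 CPM in WT livers and 879, 1001, 899 and 887 CPM in ERRα-/- livers, each ERRα-/- liver below each WT liver, with a log2 fold change of -0.15 (SE 0.10) and an unadjusted p of 0.152. Without ERRα-/- liver saline replicate 4, *Tap1* had a log2 fold change of -0.31, unadjusted p = 0.0280, and without WT liver saline replicate 2, *H2-D1* had one of 0.28, unadjusted p = 0.0491.

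Partner genes were also compared between ERRα-/- and WT livers after saline, where 11.3% of all genes were DEGs. Of 16 transcription factors, *Nfya* (0.58, SE 0.13), *Rfxank* (0.53, SE 0.20) and *Stat2* (0.27, SE 0.12) were higher and *Irf7* (-0.55, SE 0.17) was lower. *H2-Q1* (1.23, SE 0.50) and *H2-Q7* (0.39, SE 0.18) were higher of 14 heavy chains, *Sec61b* (0.49, SE 0.21) and *Sec61a1* (0.39, SE 0.15) of 9 loading partners, the proteasome maturation gene *Pomp* (0.41, SE 0.12) of 8 proteasome genes and *Ifngr1* (0.32, SE 0.14) of 4 interferon genes. Some macrophage markers were lower, with *Adgre1* (-0.76, SE 0.29), *Csf1r* (-0.59, SE 0.24) and *Vsig4* (-0.39, SE 0.16) called of 9. Their sum was 221, 205, 207 and 234 CPM in ERRα-/- livers, against the 187 to 396 CPM of WT livers, overlapping with them. In other immune lists *Cd4* was higher (1.25, SE 0.47), 1 of 2 T and NK cell markers tested, as was *Ccr2* (1.53, SE 0.41), 1 of 4 monocyte and neutrophil markers. The 10 T and NK cell markers, led by *Cd4* and mostly too low to be tested, summed to 2.788 to 4.80 CPM in ERRα-/- livers. In WT livers they summed to 1.21 to 2.776 CPM, so the ranges nearly met. The monocyte and neutrophil markers summed to 1.67 to 5.12 CPM and 0.570 to 2.64 CPM, with overlap. In all, 2 of 48 markers were higher and 5 lower, and their part in the class I levels was not tested.

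After insulin, ERRα-/- livers had less *Psmb10* than WT livers. *Psmb10* was 10.3, 9.22, 7.46 and 9.06 CPM in WT livers and 5.57, 6.86 and 5.02 CPM in ERRα-/- livers, without overlap. Its log2 fold change was -0.64 (SE 0.20, unadjusted p = 0.00893, adjusted p = 0.306), a 1.56-fold lower level. It was 1 DEG of 10, against 9.99% of 13665 genes. These insulin livers are the same that enter the insulin comparisons, so the lower *Psmb10* in ERRα-/- livers is not a separate observation. The other 9 genes ran from -0.52 (SE 0.48) for *Psmb9* to 0.14 (SE 0.17) for *Tap1*. With single livers left out, *Psmb9* ran from -0.80 to 0.02 and *Tap1* from 0.08 to 0.28.

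Among partner genes after insulin, *H2-T10* (-1.16, SE 0.51) and *H2-T22* (-0.34, SE 0.13) were lower in ERRα-/- livers, 2 of 15 heavy chains, where 9.99% of all genes were DEGs. *Tapbpl* (-0.37, SE 0.16), 1 of 9 loading partners, and *Ifngr2* (-0.49, SE 0.14), 1 of 4 interferon genes, were lower, and *Creb1* (0.38, SE 0.15), which encodes a factor that binds TGACG, was higher, 1 of 16 transcription factors. *Psmb7*, the counterpart of *Psmb10*, had a log2 fold change of 0.05 (SE 0.13). Of the markers, *Cps1* was higher (0.95 (SE 0.15, unadjusted p = 8.12e-05, adjusted p = 0.0739)), as were *Cd4* (1.75, SE 0.62), *Marco* (1.05, SE 0.39) and *Cdh5* (0.41, SE 0.18), among 5 of 50 called. *Marco* was the 1 of 9 macrophage markers called, and the median log2 fold change of the 9 was -0.05. Macrophage markers summed to 193, 239.7 and 299.7 CPM in ERRα-/- livers after insulin, overlapping with WT livers.

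ERRα3SA livers were compared with littermate livers to see whether the altered receptor went with other levels. *B2m* and *H2-D1*, which encode the light chain and a heavy chain, and *Tap1* were higher. *B2m* was 1620.5, 1441, 1677 and 1549 CPM in littermate livers and 2179, 2148, 1875 and 1836 CPM in ERRα3SA livers, without overlap. Its log2 fold change was 0.35 (SE 0.11, unadjusted p = 0.00850, adjusted p = 0.563), a 1.28-fold higher level. *H2-D1* was 550.3, 486, 535 and 534 CPM in littermate livers and 729, 741, 561 and 561 CPM in ERRα3SA livers, also without overlap, with a log2 fold change of 0.30 (SE 0.12, unadjusted p = 0.0284, adjusted p = 0.639). *Tap1* was 28.6, 28.6, 31.6 and 28.3 CPM and 40.95, 39.7, 28.9 and 35.2 CPM, with ERRα3SA liver replicate 3 inside the range of the littermates, and a log2 fold change of 0.31 (SE 0.11, unadjusted p = 0.0167, adjusted p = 0.627). These were 3 DEGs of 10, against 4.88% of 13339 genes, and 0 of those genes had an adjusted p under 0.05 by edgeR, against 2 genes of 24454 without a filter on low counts, neither of them a class I gene of the 10, and 42 by DESeq2. By DESeq2, *B2m* had an adjusted p of 0.0346.

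The heavy chain gene *H2-K1* was 1585, 1403, 1523 and 1506 CPM in littermate livers and 2081, 2058, 1734 and 1379 CPM in ERRα3SA livers. ERRα3SA liver replicate 4 lay below the littermates and the other 3 above them, with a log2 fold change of 0.27 (SE 0.14, unadjusted p = 0.0848, adjusted p = 0.719). Without that replicate the log2 fold change of *H2-K1* was 0.38, unadjusted p = 0.00142. Replicate 4 also stood apart in hepatocyte markers, which summed to 98385, 85828, 97672 and 56235 CPM in ERRα3SA livers 1 to 4 and to at least 84654 CPM in littermate livers. Its 10 most counted genes held 15.3% of counts, the lowest share of the 8 livers, and the part of this in the level of *H2-K1* was not tested. Of the 10 genes, 9 had a higher mean in ERRα3SA livers, against 49.9% of all genes, and their median log2 fold change was 0.19. The genes are not independent of each other, and the muscles shifted in the same direction, as given below. ERRα3SA liver replicate 1 was highest of all 8 livers for 7 genes and replicate 2 for 2, while replicate 3 was lowest of its group for 8.

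*B2m* was called in all 8 fits that left out 1 liver, with log2 fold changes of 0.31 to 0.40. *H2-D1* was not called without littermate liver replicate 2, 3 or 4 or ERRα3SA liver replicate 1 or 2, with unadjusted p of 0.0503 to 0.0925. *Tap1* was not called without ERRα3SA liver replicate 1 (0.0525) or 2 (0.0530). With the muscles in the same fit, 0 of the 10 genes were called by edgeR, with unadjusted p of 0.0925 for *B2m*, 0.164 for *H2-D1* and 0.147 for *Tap1*.

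Where 4.88% of all genes were DEGs, 3 of 16 transcription factors were higher in ERRα3SA livers and 0 lower, with a median log2 fold change of -0.02 over the list. Among these 3 were *Irf7* (1.23, SE 0.43) and *Irf9* (0.41, SE 0.11). *H2-T24* (0.82, SE 0.25) and *H2-T22* (0.37, SE 0.15) were higher of 13 other heavy chains, and *Hspa5* (0.50, SE 0.22) of 9 loading partners. The constitutive subunits had log2 fold changes of -0.20 (SE 0.09) for *Psmb5*, -0.16 (SE 0.08) for *Psmb6* and -0.17 (SE 0.10) for *Psmb7*, and 0 of 8 proteasome genes passed both thresholds by edgeR, although *Psmb5* had an unadjusted p of 0.0389. For the immunoproteasome the values were 0.11 (SE 0.18) for *Psmb8*, 0.20 (SE 0.12) for *Psmb9* and 0.08 (SE 0.16) for *Psmb10*.

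Of 46 cell type markers tested in ERRα3SA livers, 5 were higher and 5 lower, where 4.88% of all genes were DEGs. The 9 macrophage markers summed to 343, 369, 375 and 366 CPM in littermate livers and 421, 426, 356 and 469.8 CPM in ERRα3SA livers, led by *Clec4f*, and 1 of the 9 was called, *Vsig4* (0.29, SE 0.13). The leukocyte marker *Ptprc* (0.29, SE 0.10), the endothelial marker *Lyve1* (0.44, SE 0.10) and the monocyte marker *Ly6c2* (0.64, SE 0.24) were higher, and the B cell marker *Cd79a* (-1.17, SE 0.28) lower. The macrophage sum was highest in ERRα3SA liver replicate 4, in which *H2-K1* was lowest, and above every littermate in replicates 1 and 2, in which most class I genes were highest. Their part in the higher *B2m* and *H2-D1* was not tested.

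In muscle, the same genotypes were compared first with all 8 samples. *Psmb8*, the immunoproteasome subunit that replaces PSMB5, was higher in ERRα3SA muscle. *Psmb8* was 2.82, 1.85, 1.58 and 1.60 CPM in littermate muscles and 1.25, 4.06, 3.89 and 5.20 CPM in ERRα3SA muscles, replicate 1 below all littermates and the other 3 above them. The log2 fold change was 0.89 (SE 0.39) with an unadjusted p of 0.0492, and 0 of the 14081 genes tested had an adjusted p under 0.05 by edgeR, against 2 genes of 15688 with the livers in the same fit and 56 by DESeq2. It was 1 DEG of 10, against 4.54% of all genes. All 10 of the genes had a higher mean in ERRα3SA muscle, against 54.4% of all genes, with a median log2 fold change of 0.25. Without ERRα3SA muscle replicate 4, 7 of 10 were higher, against 51.7% of all genes, with a median of 0.11. The call of *Psmb8* was lost with replicate numbers as a block (unadjusted p = 0.138) and without any single muscle other than replicate 1 of either group, with unadjusted p of 0.0889 to 0.132.

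Without ERRα3SA muscle replicate 1, 3 genes were higher. *Tap2*, the partner of *Tap1* in the transporter, was 4.73, 4.07, 4.97 and 5.03 CPM in littermate muscles and 2.45, 7.70, 7.04 and 7.86 CPM in ERRα3SA muscles 1 to 4. Apart from replicate 1, the groups did not overlap, and the log2 fold change was 0.69 (SE 0.12, unadjusted p = 0.000318, adjusted p = 0.0259). *Psmb10* was 8.65, 7.57, 6.67 and 7.86 CPM in littermates and 3.46, 11.9, 9.97 and 12.02 CPM in ERRα3SA muscles, with a log2 fold change without replicate 1 of 0.56 (SE 0.12, unadjusted p = 0.00122, adjusted p = 0.0435). For *Psmb8* it was 1.16 (SE 0.24, unadjusted p = 0.000900, adjusted p = 0.0395). These 3 of 10 were DEGs, against 17.4% of 14363 genes, and all 3 had an adjusted p under 0.05, against 3.23% of all genes. Replicate 1 was lowest of its group for all 3 and was left out after its values were seen, so these p-values are descriptive. *B2m* was 116, 105, 90.8 and 106 CPM in littermates and 176, 94.3, 76.5 and 106 CPM in ERRα3SA muscles, and its log2 fold change turned from 0.11 with replicate 1 to -0.17 without it (unadjusted p = 0.196).

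The constitutive proteasome subunits were higher in the same muscles. *Psmb5* was 60.3, 63.1, 59.6 and 58.5 CPM in littermates and 24.5, 90.3, 90.2 and 88.9 CPM in ERRα3SA muscles, with replicate 1 far below the others. *Psmb7* was 104, 101, 101 and 109 CPM in littermates and 184, 147, 149.6 and 134 CPM in ERRα3SA muscles, above them in replicate 1 too. Without replicate 1, *Psmb5* had a log2 fold change of 0.58 (SE 0.06, unadjusted p = 3.28e-06, adjusted p = 0.00337), *Psmb6* of 0.35 (SE 0.06, unadjusted p = 0.000258, adjusted p = 0.0232) and *Psmb7* of 0.48 (SE 0.06, unadjusted p = 2.30e-05, adjusted p = 0.00719). With all 8 muscles, *Psmb7* was the 1 of these called, at 0.57 (SE 0.12, unadjusted p = 0.000873, adjusted p = 0.477). Of the immunoproteasome subunits, *Psmb9* was not called without replicate 1 (0.48, unadjusted p = 0.146). In these 3 muscles 4 of the 8 genes for constitutive catalytic subunits, activators and maturation of the proteasome were higher and 1 was lower, *Psme4* (-0.39, SE 0.09). Of all genes, 17.4% were DEGs in this fit.

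**Figure D4:**
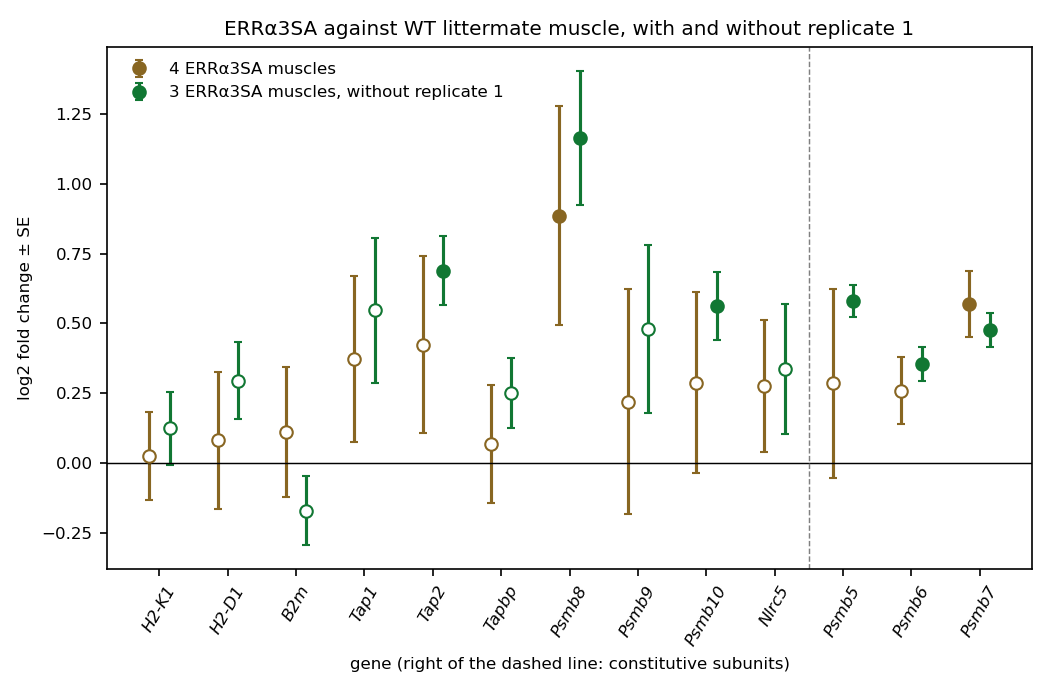
Log2 fold change with SE in ERRα3SA against littermate muscle, with all 4 ERRα3SA muscles and without replicate 1, for the 10 class I genes and, right of the dashed line, *Psmb5*, *Psmb6* and *Psmb7*; filled points are DEGs. *Tap2* was 0.42 with all samples and 0.69 without replicate 1.

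ERRα3SA muscle replicate 4 held more macrophage and monocyte RNA than the other muscles. The 9 macrophage markers, led by *Csf1r*, summed to 37.1, 37.02, 44.3 and 44.9 CPM in littermates and 38.6, 37.9, 41.5 and 126 CPM in ERRα3SA muscles, and *Clec4f* had at most 3 counts in every muscle. The monocyte and neutrophil list, led by *Ccr2*, summed to 4.36, 5.64, 4.61 and 4.87 CPM and 6.80, 4.58, 4.06 and 42.6 CPM. Of the class I genes, 7 were highest of all 8 muscles in replicate 4. With replicates 1 and 4 both left out, an alternative chosen after these values were seen, 4 of 10 genes were called, against 17.8% of 14586. *Tap2* (0.65, unadjusted p = 0.000472), *Psmb8* (1.01, unadjusted p = 0.000739) and *Psmb10* (0.51, unadjusted p = 0.00166) were higher and *B2m* (-0.29, unadjusted p = 0.0112) was lower, from 2 ERRα3SA muscles. Without replicate 4 alone, 0 of 10 genes were called or had an unadjusted p under 0.05 by edgeR.

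Of other partner genes in muscle, *Irf7* was higher with all samples (1.30, SE 0.33) and without replicate 1 (1.22, SE 0.33), and so was *H2-T23* (0.45, SE 0.20 and 0.55, SE 0.18), 1 of 12 other heavy chains. Of all genes, 4.54% were DEGs with all samples, 17.4% without replicate 1 and 17.8% without replicates 1 and 4. Without replicate 1, the translocon genes *Sec61a1* (0.57, SE 0.25), *Sec61b* (0.46, SE 0.17) and *Sec61g* (0.37, SE 0.12) were higher, 3 of 9 loading partners. With replicate 4 left out as well, *Sec61g* was the 1 of these called (0.35, SE 0.12), and *Pdia3* (-0.31, SE 0.07) and *Canx* (-0.30, SE 0.06) were lower.

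Of 38 cell type markers tested in muscle without replicate 1, 6 were higher and 4 lower, where 17.4% of all genes were DEGs. Among the higher were *Cd68* (1.84, SE 0.77) and *C1qa* (1.02, SE 0.41), 2 of 5 macrophage markers, *Ccr2* (1.68, SE 0.66), the 1 monocyte and neutrophil marker tested, and *Coro1a* (1.33, SE 0.56), 1 of 3 markers of all leukocytes. The muscle fibre marker *Ttn* (-0.37, SE 0.13), 1 of 5, and *Dcn* (-0.55, SE 0.11), 1 of 3 stellate cell and fibroblast markers, were lower, and the median of those 3 was 0.20. With replicates 1 and 4 left out, 0 macrophage, monocyte or leukocyte markers were called by edgeR, from 2 ERRα3SA muscles. The part of these markers in the higher *Tap2*, *Psmb8* and *Psmb10* was not tested.

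Whether ERRα3SA acted differently in liver and muscle was tested as the liver effect minus the muscle effect. With all samples, 0 of 10 genes had an unadjusted p under 0.05 by edgeR or DESeq2, against 5.62% of 15688 genes, and *Psmb8* came nearest at -0.76 (SE 0.42, unadjusted p = 0.0921, adjusted p = 0.953). Without ERRα3SA muscle replicate 1, 3 of 10 did, against 18.3% of 16019. *B2m* had a difference of 0.57 (SE 0.17, unadjusted p = 0.00518, adjusted p = 0.0943), *Tap2* of -0.58 (SE 0.16, unadjusted p = 0.00303, adjusted p = 0.0773) and *Psmb8* of -1.01 (SE 0.30, unadjusted p = 0.00436, adjusted p = 0.0880). *B2m* was thus relatively higher in liver, and *Tap2* and *Psmb8* in muscle. Of 58 cell type markers in this fit, 5 had a higher difference and 3 a lower one. The medians were -0.83 for the 9 macrophage markers, -1.99 for the 4 monocyte and neutrophil markers and -0.61 for the 3 markers of all leukocytes. With replicate 4 left out as well, these medians were 0.34, 2.15 and 0.26. The part of these markers in the differences was not tested. Of the constitutive subunits, *Psmb5* had a difference of -0.75 (SE 0.11, unadjusted p = 6.62e-06, adjusted p = 0.00884) without replicate 1.

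Liver and muscle themselves were compared within the littermates, as separate samples, since the sample titles do not say whether both came from the same mice. All 10 genes were higher in liver, 10 DEGs of 10, against 84.2% of 14886 genes in either direction. Of all genes, 6288 were DEGs higher in liver and 6246 were DEGs lower in liver. At an adjusted p under 0.05 it was 10 of 10, against 86.5% in either direction. As most genes differed between these tissues, being called says little by itself, while about as many genes were lower as higher. The sizes set the 10 genes apart from each other. *H2-K1* was 1585, 1403, 1523 and 1506 CPM in livers and 92.6, 74.7, 62.3 and 76.3 CPM in muscles, a log2 fold change of 4.40 (SE 0.12). *B2m* was 4.01 (SE 0.10). *H2-D1*, the other heavy chain, was 2.74 (SE 0.11) on the log2 scale, from 103, 83.4, 71.9 and 80.3 CPM in muscles. Per kilobase, *H2-K1* was above *H2-D1* in livers (512 ± 25.8 against 204 ± 10.8), and in muscles their ranges overlapped (26.03 ± 4.23 against 32.9 ± 5.18).

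Between these tissues the 3 inducible proteasome subunits differed more than their constitutive counterparts. The log2 fold change was 3.46 (SE 0.16) for *Psmb8*, 3.10 (SE 0.18) for *Psmb9* and 1.85 (SE 0.13) for *Psmb10*, against 0.38 (SE 0.06) for *Psmb5*, 0.24 (SE 0.07) for *Psmb6* and -0.06 (SE 0.06) for *Psmb7*. It was 3.39 (SE 0.12) for *Tap1*, 2.06 (SE 0.11) for *Tap2*, 1.59 (SE 0.08) for *Tapbp* and 3.46 (SE 0.14) for *Nlrc5*. All 9 loading partners were higher in liver, *Sec61a1* (3.61, SE 0.10) and *Pdia3* (3.20, SE 0.07) the most. Of 13 other heavy chains, 11 were higher, with *H2-Q10* at 10.39 (SE 0.16), and *Mr1* was lower (-2.19, SE 0.12). Of 16 transcription factors, 11 were higher and 3 lower, with *Irf7* at 4.09 (SE 0.23) and *Stat2* at 3.61 (SE 0.10), and 0 of 7 class II presentation genes were called by edgeR.

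The markers of Kupffer cells, which are liver macrophages, and of other macrophages were higher in liver as well, 9 of 9. Their sum was 343, 369, 375 and 366 CPM in livers and 37.1, 37.02, 44.3 and 44.9 CPM in muscles. *Clec4f* led that sum in livers and had at most 3 counts in every muscle, so this list partly restates the tissue. The leukocyte markers summed to 28.9, 27.7, 30.1 and 31.97 CPM in livers and 13.2, 14.1, 16.4 and 15.4 CPM in muscles. The 6 endothelial markers summed to 166, 199.6, 179 and 188 CPM in livers and 241, 229, 256 and 237 CPM in muscles, with 2 of 6 higher in liver and 2 lower. Their part in the tissue difference was not tested.

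In muscle, the order of levels per kilobase was led by *B2m* (122 ± 12.2), then *H2-D1* and *H2-K1*, *Tapbp* (7.56 ± 0.673) and *Psmb10* (4.51 ± 0.481). *Tap2* (1.24 ± 0.116) was above *Tap1* (0.546 ± 0.116), whose range overlapped with those of *Psmb8* (0.580 ± 0.174) and *Psmb9* (0.514 ± 0.178). *Nlrc5* was lowest at 0.197 ± 0.0361, with 1.94, 1.23, 1.77 and 1.76 CPM in the single muscles.

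Within liver groups, most of these genes varied together from mouse to mouse. Over 23 livers, each centred on the mean of its group, *H2-D1* followed the mean of the other 9 genes most closely (Pearson r 0.875, Spearman rho 0.898). *Tapbp* (0.695, 0.715), *Psmb10* (0.684, 0.633), *H2-K1* (0.669, 0.781) and *Tap2* (0.669, 0.665) came next, then *Psmb9* (0.594, 0.670) and *Psmb8* (0.510, 0.502). *B2m* (0.388, 0.431) and *Tap1* (0.376, 0.232) followed less, and *Nlrc5*, the transactivator, did not follow the others (-0.0938, -0.111). These are descriptions without a test, over livers that share library and depth effects, and other sets of genes were not compared in this way. The mean deviation was highest in ERRα-/- liver saline replicate 4 (0.30 on the log2 scale) and WT liver saline replicate 2 (0.19), and lowest in ERRα3SA liver replicate 3 (-0.27) and WT liver insulin replicate 3 (-0.26).

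**Figure D5:**
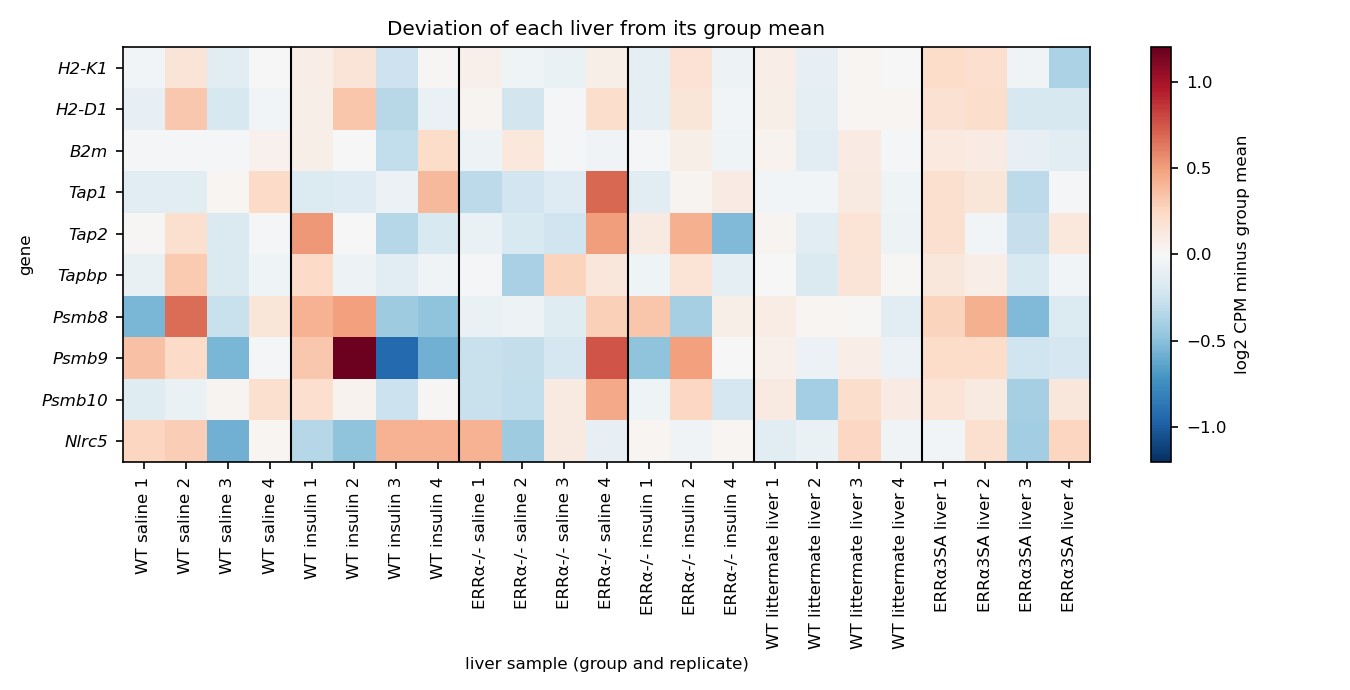
Log2 deviation of each gene from its group mean in each of 23 livers; columns are livers, black lines separate groups, and colour runs from below to above the mean. ERRα-/- liver saline replicate 4 was above its group mean by 0.30 on average and ERRα3SA liver replicate 3 was below its own (-0.27).

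Of 12691 genes compared, 8 outside the lists had deviations most like the mean of the 10 genes. They were *Ifitm3* (Pearson r 0.808, Spearman rho 0.790), an antiviral membrane protein gene, *Clec1b* (0.795, 0.699), *Mpeg1* (0.790, 0.824), a macrophage perforin, and *Med25* (0.777, 0.781). *Ly6e* (0.775, 0.807), *Gsdmd* (0.775, 0.718), which encodes gasdermin D, *Il18bp* (0.772, 0.716) and the processed pseudogene *Rps3a2* (0.769, 0.776) completed the 8. Both values are over the same 23 livers and are a description.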

How the data were processed

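The counts per gene deposited by the authors came from paired-end reads aligned with STAR to mm10 and were used as deposited. Each comparison was fitted on all genes of its table with edgeR 4.0.16 in R 4.3.3 (TMM factors, a filter on low counts, quasi-likelihood test), with Benjamini-Hochberg adjustment over all genes tested, and DESeq2 1.42.0 as an alternative. The procedure was tested on simulated data. SE is the absolute log2 fold change over the square root of F. CPM used TMM library sizes, and per-kilobase levels divide CPM by the exon bases of each gene. Replicate numbers were checked as pairs: no pair of groups had all correlations above 0.1, with values of -0.22 to 0.33, so numbers were not treated as pairs. Between liver and muscle, replicates 2, 3 and 4 of both genotypes correlated best with their own number, at 0.029 to 0.104, and replicate 1 did not. Replicates 1, 3 and 4 of WT and ERRα-/- livers after saline, which are different mice, did so too. The sample titles do not say whether liver and muscle came from the same mice. Members and lists were chosen with earlier results of these data known. Named genes were the 10 members, *Esrra*, *Psmb5*, *Psmb6* and *Psmb7*, at most 4 called genes per list and comparison by size of log2 fold change, and the 8 most alike over livers. Genes that overlap members or share stretches with them were named as well. Some results of the lists are not reported here.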

Additional observations from a re-analysis of the deposited data

Results flagged for a closer look

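In 7 groups of 4 samples, each looked at for the 10 genes, 8 of 70 cases held a sample whose gap to the nearest other, over the range of the group, was above the 95% critical value of Dixon's test, where chance gives about 1 in 20; the cases reuse the same samples and are not independent. These were *B2m* at 1055 CPM in WT liver saline replicate 4, *Tap1* at 18.7 CPM in WT liver insulin replicate 4, *B2m* at 1001 CPM in ERRα-/- liver saline replicate 2, and *Psmb9* at 9.93 CPM and *Tap1* at 36.3 CPM in ERRα-/- liver saline replicate 4. The others were *Tap1* at 31.6 CPM in WT littermate liver replicate 3, *Psmb10* at 20.5 CPM in ERRα3SA liver replicate 3 and *Tap2* at 2.45 CPM in ERRα3SA muscle replicate 1.

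The interaction of *Psmb10*, its insulin effect in WT minus that in ERRα-/- livers, was 0.65 on the log2 scale (unadjusted p = 0.0253, adjusted p = 0.528 by edgeR); it was 1 of 10 genes at an unadjusted p under 0.05, against 8.79% of all genes, and its p was 0.0525 to 0.0719 in 3 of 15 fits that left out 1 liver.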

How the results depend on the processing

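The number of the 10 genes called was recomputed with DESeq2, RLE size factors, no filter on low counts, all groups of a table in the fit (not for the interactions), replicate numbers as a block, and single samples left out. With all groups in the fit, 0 genes were called in ERRα3SA against littermate liver, against 3. With the replicate block, as paired samples, 2 were called after insulin in WT liver, against 1, and 0 in ERRα3SA muscle, against 1. After insulin in ERRα-/- liver 3 were called with DESeq2 and with no filter, against 2, and also with the block, a fit that leaves out the unpaired saline replicate 3, which gave 3 when left out by itself, and in ERRα3SA liver 4 were called with DESeq2, against 3.

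With single samples left out, counts ran from 1 to 2 after insulin in WT liver, 1 to 3 after insulin in ERRα-/- liver, 0 to 1 for ERRα-/- against WT after saline, 1 to 5 in ERRα3SA liver, 0 to 3 in ERRα3SA muscle, 0 to 1 for the genotype interaction and 0 to 3 for liver minus muscle. They were 1 throughout for ERRα-/- against WT after insulin and 10 throughout for liver against muscle.

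With ERRα3SA muscle replicates 1 and 4 left out, chosen after seeing the data, 4 genes were called in muscle and 3 for liver minus muscle, and *B2m* in muscle had a log2 fold change of -0.29, against 0.11 with all samples; the cause was not tested. Low counts limit *Psmb8*, *Psmb9* and *Nlrc5* in muscle, at 14 to 150 counts per sample. Groups of 3 or 4 animals, reads shared among heavy chain copies and mixed cell types limit the others.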
